A study of Arabidopsis thaliana with 4 samples.

Results

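The mitochondrial genome of Arabidopsis thaliana was followed through 6 of its genes, nad4, nad4L, nad5, cox1, ccb382 and orfX, in seedlings of the add3 mutant and of wild type. These genes were chosen with earlier results of these data known, and all probe sets that the platform annotation gave to 1 of them alone were taken. The 6 genes are part of 13355 genes with a probe set of their own in the annotation, and they gave 7 of 22746 non-control probe sets, since nad5 had a pair of them. In the gene table used for names, ccb382 is called ccmFN1 and orfX is called mttB. Of the 6 genes, nad4, nad4L, nad5 and cox1 encode subunits of the respiratory chain, while ccb382 and orfX do not.

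The add3 group carried an EMS mutation, called ARRESTED DEVELOPMENT 3, in Col-3 gl1 plants. The gl1 allele, which leaves plants without leaf hairs, was thus present in add3, while wild type (WT) was Col-0. Effects of add3, of gl1 and of the strain cannot be told apart. The labels do not name the mutated locus, so no transcript served as a check of the genotype. Each group had 2 samples, each hybridised to 1 Affymetrix ATH1 array. Both groups were stratified for 4 days at 4 °C, then grown on soil mix at 29 °C under light for 24 h a day, and above-ground tissue was taken at developmental stage 1.02. The labels do not say whether replicates came from separate plantings, so the spread behind the p-values may be technical.

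Plant mitochondria keep a small genome that encodes some subunits of complexes I, III, IV and V, proteins that attach heme to c-type cytochromes, and parts of the mitochondrial ribosome. The other subunits are encoded in the nucleus and imported, so each complex is built from the products of both genomes. Transcripts of the plant mitochondrial genome are edited at many C residues, several of them are spliced, and nad1 and nad5 are pieced together from separately transcribed parts.

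Each array gave 1 MAS5 signal, on a linear scale, for every probe set. Median signals were 48.4 and 48.2 on the add3 arrays, against 52.1 and 51.4 on the WT arrays. The background of an array was taken as the highest of 27 bacterial control probe sets that read as unspiked, which was 25.4 and 12.3 on add3 replicates 1 and 2, against 20.5 and 13.0 on WT replicates 1 and 2. The green leaf marker RCA, which encodes Rubisco activase, had signals of 3086 and 3537 in add3, against 3521 and 3068 in WT. Of 21 marker loci listed for leaf, shoot meristem, root and flower, 3 had a probe set of their own in the annotation. The root hair gene EXPA7 had signals of 12.1 and 5.87 in add3, against 26.8 and 17.9 in WT, and the meristem gene CLV3 had 2.54 and 1.56 in add3, against 21.7 and 3.97 in WT. Neither gene was tested, and neither was above background on an add3 array. In WT, EXPA7 was above background on both arrays and CLV3 on replicate 1 only. No flower marker was annotated.

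All 7 probe sets had lower signals on both add3 arrays than on both WT arrays. Such a separation was seen for 30.8% of all non-control probe sets. Differences were tested on log2(signal + 12.5) with limma, and adjusted p-values (Benjamini-Hochberg) run over 13648 probe sets whose mean signal was at least 33.2. The log2 differences below are on this scale, add3 minus WT, and understate the change of dim genes. The filter kept 6 of the 7 probe sets, and 3 of these 6 fell past the threshold of 0.05, for cox1, nad5 and nad4. Over all tested probe sets, 7.31% were called, of which the falls made up 3.14% and the rises 4.17% of those tested. The median log2 difference was -0.64 over the 6 tested probe sets and -0.05 over all tested probe sets. For 1 of the 6, a nad5 probe set, the add3 mean was below the filter, so that it was tested through its WT signals alone. Of the other 5, 2 fell, and their median was -0.62, while 2.99% of all tested probe sets with both group means at or above the filter fell (median -0.04). In tissue samples, fewer cells of a type, fewer mitochondria per cell and less RNA per mitochondrion cannot be told apart.

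Complex I takes electrons from NADH, and its membrane arm, which moves protons, holds the products of nad4, nad4L and nad5. The nad4 probe set was the brightest of the 7, with signals of 609 and 647 in add3, against 1069 and 879 in WT. The groups did not overlap, and nad4 fell by 0.62 on the log2 scale (SE 0.13, 95% interval -0.93 to -0.30, limma adjusted p = 0.0403). Leaving out 1 array leaves its group with a single array, which is then assumed to vary like the arrays of the other group, so such fits give no separate evidence that a call is stable. The nad4 call was lost without add3 replicate 1 (limma adjusted p = 0.158), add3 replicate 2 (0.106) or WT replicate 1 (0.0814). It was also lost when each array was scaled to the same median (limma adjusted p = 0.0501).

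The nad5 gene was read by a pair of probe sets. The brighter, whose name ends in _s_at, the platform's mark for probes shared between transcripts, had signals of 22.3 and 34.8 in add3, against 66.3 and 59.9 in WT. The add3 signal of replicate 1 was below the background of its array, and the other 3 signals were above theirs. The mean was 28.5 in add3, below the filter of 33.2, and 63.1 in WT, so the probe set passed the filter through WT alone and a difference was built into its passing. This nad5 probe set fell by 0.90 on the log2 scale (SE 0.21, 95% interval -1.38 to -0.41, limma adjusted p = 0.0467). The call was lost without add3 replicate 1 (limma adjusted p = 0.165), WT replicate 1 (0.130) or WT replicate 2 (0.0810), and when each array was scaled to the same median (0.0502). The dimmer nad5 probe set had signals of 26.4 and 24.4 in add3, against 40.9 and 32.6 in WT. Its mean signal was below the filter, so it was not tested, and its log2 difference was -0.37. Both nad5 probe sets were lower on both add3 arrays.

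The nad4L gene encodes a small subunit of the same membrane arm. Its signals were 51.1 and 56.3 in add3, against 71.9 and 78.4 in WT. The groups did not overlap, and the log2 difference of -0.40 (SE 0.15, 95% interval -0.76 to -0.05) did not pass the threshold (limma adjusted p = 0.146).

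Complex IV passes electrons from cytochrome c to oxygen, and cox1 encodes its largest catalytic subunit. The cox1 signals were 132 and 130 in add3, against 393 and 296 in WT. The add3 arrays lay close together and the WT arrays further apart, with WT replicate 1 the highest. The mean signal was 131 ± 1.15 in add3 and 344 ± 68.8 in WT (SD, n = 2 each), a ratio of 0.381. Among the 7 probe sets cox1 had the largest difference, and it fell by 1.30 on the log2 scale (SE 0.16, 95% interval -1.67 to -0.92, limma adjusted p = 0.0117). Fits without each array in turn, with 1 array left in a group, gave limma adjusted p-values from 0.00780 to 0.0296 for cox1 and log2 differences from -1.50 without WT replicate 2 to -1.10 without WT replicate 1. Ranked among all non-control probe sets of its own array, cox1 stood at the 76.8th and 76.5th percentile in add3, against the 93.7th and 90.8th in WT. These ranks do not depend on how an array was scaled.

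The ccb382 gene encodes a part of the machinery that attaches heme to cytochrome c and cytochrome c1, which carry electrons in and after complex III. Its signals were 258 and 312 in add3, against 525 and 397 in WT. The groups did not overlap. The log2 difference of -0.66 (SE 0.17, 95% interval -1.06 to -0.27) was as large as that of nad4 but did not pass the threshold (limma adjusted p = 0.0601). Without WT replicate 2 it was -0.86 and passed (limma adjusted p = 0.0386).

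The orfX gene encodes a protein related to TatC, a membrane component of the bacterial and plastid twin-arginine translocase. Its signals were 78.7 and 92.2 in add3, against 116 and 111 in WT. Here too the groups did not overlap, and the log2 difference of -0.37 (SE 0.14, 95% interval -0.70 to -0.03) did not pass the threshold (limma adjusted p = 0.156). Its probe set name also ends in _s_at.

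**Figure D1:**
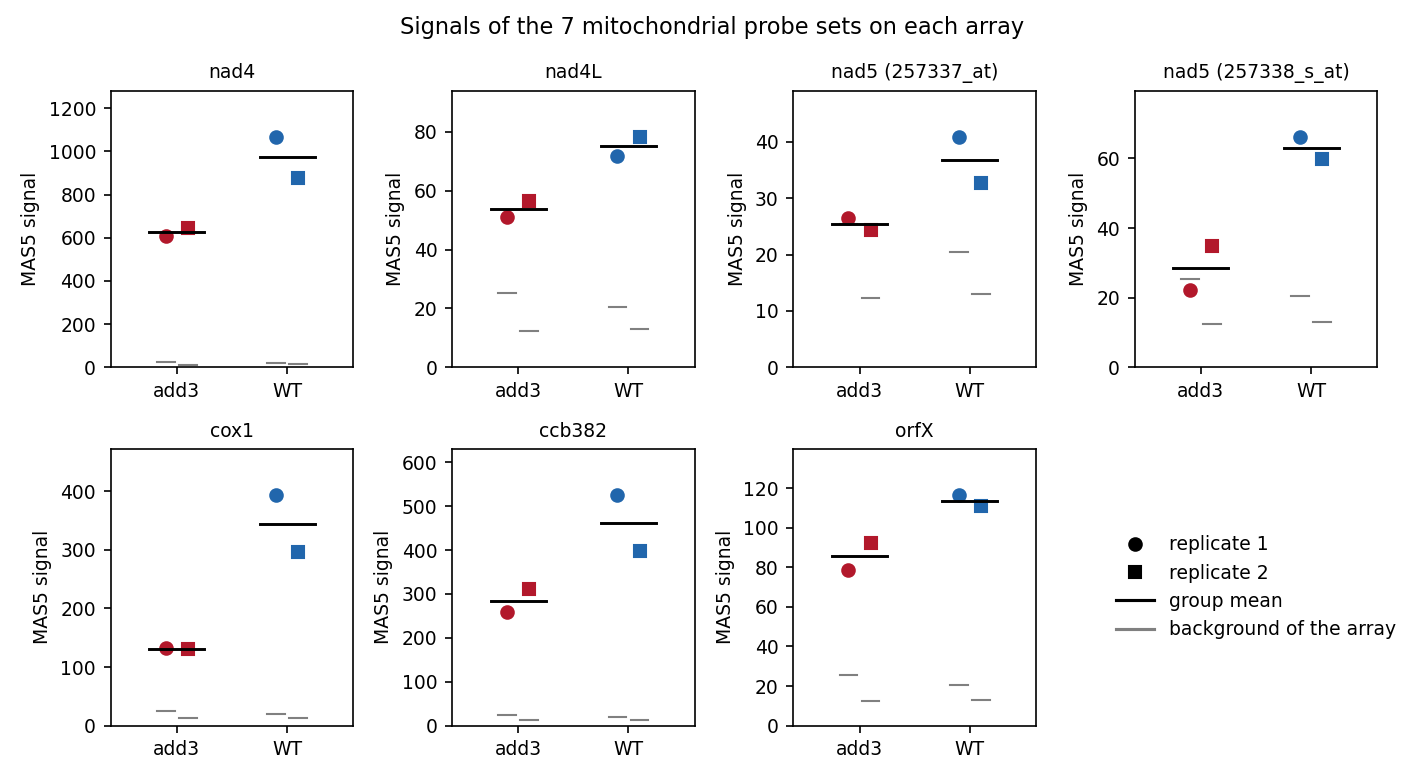
MAS5 signals (linear axis from 0) of the 7 mitochondrial probe sets on each array, add3 left and WT right, with group means (black) and the background of each array (grey). Every add3 signal lies below every WT signal of the same probe set, and for the brighter nad5 probe set add3 replicate 1, at 22.3, lies below its background of 25.4.

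Differences in the sizes of the shifts between the 6 genes were not tested, apart from cox1 against nad4. The 95% interval of cox1 (-1.67 to -0.92), singled out here because its difference was the largest, overlapped those of nad4, nad5 and ccb382. It did not overlap that of nad4L (-0.76 to -0.05) or orfX (-0.70 to -0.03). The difference between cox1 and nad4 within each array, which does not depend on array scaling apart from the added 12.5, was -2.11 and -2.21 in add3, against -1.41 and -1.53 in WT, on the log2 scale. It was lower on both add3 arrays, by -0.68 on average. With 2 arrays a group the exact two-sided permutation p was 0.333, which is the smallest this design can give, so this test cannot decide. The same within-array difference to nad4 was -1.20 and -1.03 in add3, against -1.01 and -1.12 in WT, for ccb382, and these overlapped. For nad4L it was -3.29 and -3.26 in add3, against -3.68 and -3.29 in WT, and for orfX -2.77 and -2.66 in add3, against -3.07 and -2.85 in WT. For orfX both add3 values were thus above both WT values, opposite to cox1. For nad4L, add3 replicate 1 and WT replicate 2 were level at -3.29, so the groups were not clearly apart. The brighter nad5 probe set, at -4.16 and -3.80 in add3, against -3.78 and -3.62 in WT, was lower on both add3 arrays. The dimmer one was higher on both on this scale, by 0.24 on average. For the dim probe sets the added 12.5 weighs on these values. It can set the order of the arrays for nad4L and for the dimmer nad5 probe set, so no direction is read from them.

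In the gene table nad4 and orfX are neighbouring protein-coding genes of the mitochondrial genome, followed by rpl2, matR and nad5. The log2 differences along this stretch were -0.62 for nad4, -0.37 for orfX and -0.90 for the tested nad5 probe set. They were -0.37 for the dimmer nad5 probe set and -0.31 for an rpl2 probe set also annotated to a chromosome 2 locus. For matR, not above background in add3, the value was -0.50. Which part of nad5 its probe sets read was not tested. The genes ccb382 and nad4L, at -0.66 and -0.40, and cox1, at -1.30, lie elsewhere on that genome.

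WT replicate 1 had the highest signal of the 4 arrays for nad4, both nad5 probe sets, cox1, ccb382 and orfX, and WT replicate 2 had the highest for nad4L. Leaving out WT replicate 1 brought the median log2 difference of the tested probe sets to -0.47, and leaving out WT replicate 2 to -0.81. No estimate for the 6 tested probe sets was above 0 without any 1 of the 4 arrays.

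**Figure D2:**
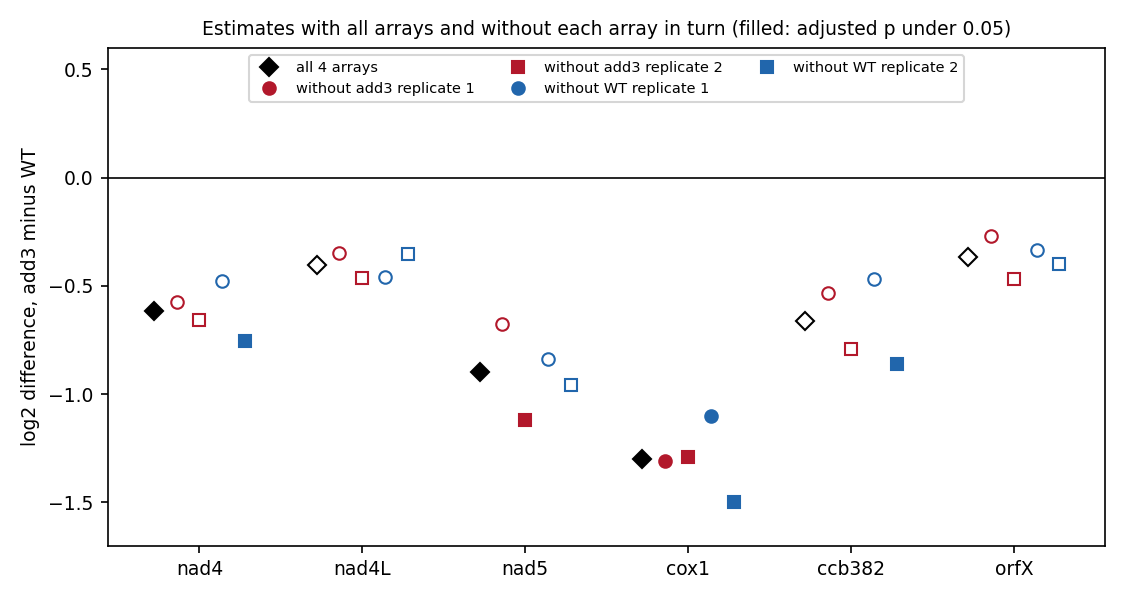
Log2 differences, add3 minus WT, of the 6 tested probe sets with all 4 arrays (diamonds) and without each array in turn, filled where the limma adjusted p was under 0.05. For cox1 all 5 points are filled, between -1.50 and -1.10, while nad4L and orfX have no filled point.

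The control probe set for 5S ribosomal RNA was also lower in add3, with signals of 39.5 and 38.0, against 182 and 78.0 in WT. That for 25S ribosomal RNA had 43.1 and 118 in add3, against 45.7 and 105 in WT, and overlapped between the groups. The ratio of 3' to 5' signal, a measure of RNA integrity, was 3.10 and 3.17 in add3, against 4.49 and 2.71 in WT, for the second set of actin controls. For the first actin set it was 5.47 and 7.18 in add3, against 5.04 and 7.23 in WT. For the first set of GAPDH controls it was 3.01 and 2.88 in add3, against 4.05 and 3.13 in WT, and for the second 1.15 and 1.28 in add3, against 1.38 and 1.26 in WT. WT replicate 1 was thus the highest for 3 of the 4 control sets and the lowest for the first actin set. Mitochondrial transcripts lack the long poly(A) tails of nuclear mRNA, and the sources used here do not give the primer used for labelling. The part of labelling, RNA integrity or ribosomal RNA content in these results was not tested.

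Another 10 genes of the mitochondrial genome had 16 probe sets of their own. Of these, 10 probe sets were tested, all 10 estimates were below 0 (median -0.43), as were 55.9% of all tested, and limma called 0 of them at an adjusted p under 0.05, with 5 at an unadjusted p under 0.05, as were 26.3% of all tested. For 2 of the 10, both nad1 probe sets, the add3 mean was below the filter. Both add3 signals were below both WT signals for 9 of the 10, against 32.3% of all tested probe sets. The smallest adjusted p belonged to ccb452, another gene of cytochrome c maturation, with signals of 140 and 128 in add3, against 198 and 201 in WT (log2 difference -0.53, SE 0.13, limma adjusted p = 0.0520). Another gene of this pathway, ccb206, had 62.0 and 82.5 in add3, against 92.9 and 93.4 in WT (log2 difference -0.33). The gene ccb203, of the same pathway, was not above background in add3, with 9.02 and 5.70, against 46.7 and 31.2 in WT. The ccb203 level was at least 2.16-fold lower in add3, set against the background of the add3 arrays, and it was too dim on average to be tested. The probe set names of ccb452, nad6 and matR also end in _s_at.

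The complex I genes of this group were nad1, nad2, nad6, nad7 and nad9. For nad9 the signals were 110 and 116 in add3, against 148 and 148 in WT (log2 difference -0.35, limma adjusted p = 0.137). For nad6 they were 38.4 and 43.4 in add3, against 91.7 and 49.4 in WT (log2 difference -0.59, limma adjusted p = 0.194), so WT replicate 2 lay nearer to the add3 arrays than to WT replicate 1. The nad1 gene had 7 probe sets, of which 5 were tested. Their log2 differences lay between -1.10 and -0.27, and 1 of the 5 overlapped between the groups. The nad1 probe set at -1.10 had signals of 28.0 and 11.0 in add3, against 86.4 and 31.5 in WT, with a background of 25.4 and 12.3 on the add3 arrays.

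The second subunit of complex IV, cox2, had signals of 38.9 and 43.2 in add3, against 68.8 and 49.5 in WT (log2 difference -0.41, SE 0.19, limma adjusted p = 0.229). The probe sets of nad2, nad7 and matR, the maturase gene of this genome, were not above background on either add3 array. Their signals in add3 were 1.45 and 7.32 for nad2, 8.90 and 9.92 for nad7, and 1.51 and 2.43 for matR. In WT they were 4.70 and 1.53 for nad2, 17.5 and 15.5 for nad7, and 3.07 and 14.4 for matR. The add3 signals of these genes were therefore only bounded by the background. In WT, nad2 was above background on neither array, and nad7 and matR were above it on replicate 2 only.

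**Figure D3:**
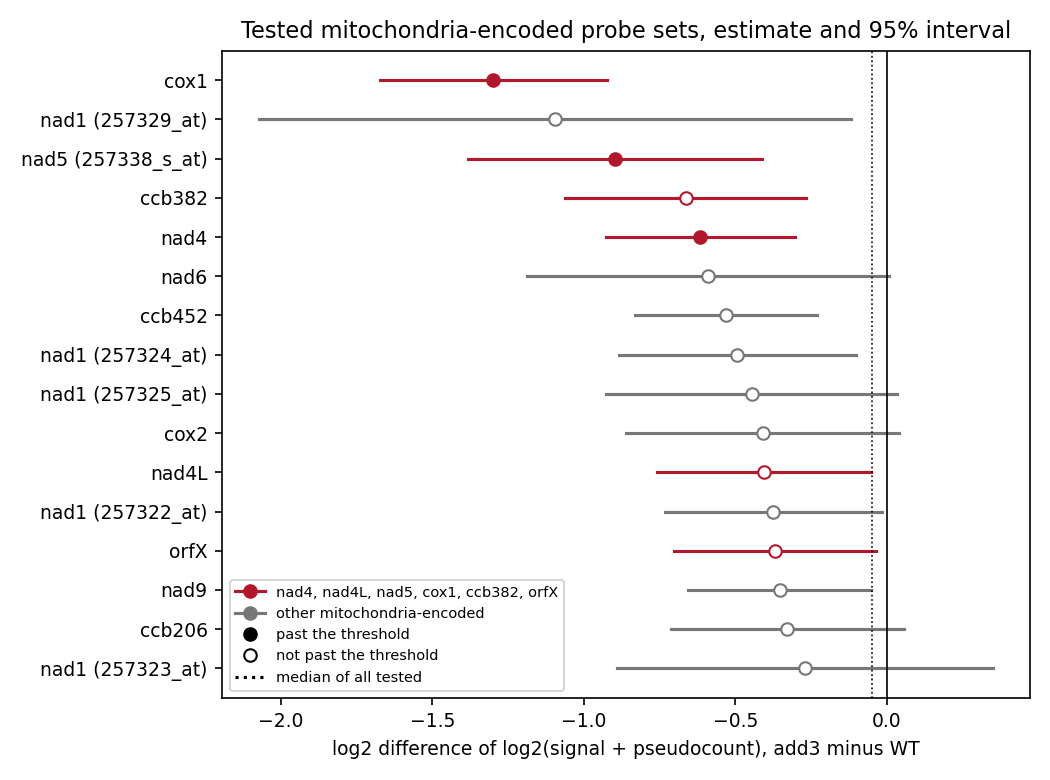
Log2 differences, add3 minus WT, with 95% intervals from limma for the 16 tested probe sets of the mitochondrial genome, filled where past the threshold, red for the 6 genes described in full. The estimates run from -1.30 for cox1 to -0.27 for a nad1 probe set, all below the median of all tested probe sets (dotted, -0.05), and 3 are filled.

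A further 12 probe sets were annotated to a mitochondrial gene together with another gene, and 11 of these 12 were paired with a locus of chromosome 2, which carries a copy of much of the mitochondrial genome. Of the 9 tested, 1 fell and 0 rose, while 3.14% of all tested probe sets fell and 4.17% rose. Estimates were below 0 for 8 of the 9 (median -0.49), as were 55.9% of all tested. The probe set that fell was annotated to rps3 and rpl16, both mitochondrial, and was the 1 of the 12 without a chromosome 2 locus. Its signals were 353 and 340 in add3, against 1247 and 695 in WT (log2 difference -1.39, limma adjusted p = 0.0240). The probe sets of cob, atp1 and cox3, each shared with a chromosome 2 locus, had log2 differences of -0.67, -0.49 and -0.38, and none was called. That of atp9, also shared, had signals of 499 and 634 in add3, against 639 and 520 in WT. Its groups overlapped (log2 difference -0.03, limma adjusted p = 0.913). The 1 estimate above 0 was 0.64 (limma adjusted p = 0.0675), for a probe set annotated to rps12 and AT2G07675. Its signals were 133 and 153 in add3, against 101 and 74.3 in WT. Not every probe set that can read a mitochondrial transcript was therefore lower in add3. Whether the 7 probe sets described in full also match the chromosome 2 copy was not tested.

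Plastid-encoded genes, which also sit on an organelle genome, had 69 probe sets tested, of which 11 fell, with a median log2 difference of -0.21. For the 16 tested mitochondrial probe sets the median was -0.47, with 3 falls, while 3.14% of all tested probe sets fell. With both group means at or above the filter, 13 mitochondrial probe sets were left, with a median of -0.41 and 2 falls. The difference between the organelles was not tested.

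Nuclear genes for partner subunits were set beside the mitochondrial ones. Of 38 loci listed for complex I, 25 had a probe set of their own and were tested, and limma called 0 of 25, with 6 at an unadjusted p under 0.05, a share near the 26.3% of all tested probe sets. The estimates were below 0 for 13 and above 0 for 12, with a median of -0.02. The smallest p belonged to AT1G14450 and AT2G02510, related small subunits, with signals of 183 and 171 in add3, against 241 and 266 in WT, for AT1G14450 (log2 difference -0.49, limma adjusted p = 0.0671). AT2G02510 had 411 and 468 in add3, against 679 and 529 in WT (log2 difference -0.44, limma adjusted p = 0.128).

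For complex IV, 9 of 15 listed loci were tested and limma called 0, with 1 at an unadjusted p under 0.05 (median -0.04). The copper chaperone gene AT1G53030 had 38.5 and 43.1 in add3, against 64.4 and 55.7 in WT (log2 difference -0.44, limma adjusted p = 0.151), and the subunit gene AT2G47380 had a log2 difference of -0.28. The fall of cox1 thus stood beside nuclear complex IV genes of which none passed the test, and the difference between them was not tested.

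Genes of complex III and cytochrome c gave a median of 0.10 over 13 tested of 17 listed, with 0 calls in limma and 3 at an unadjusted p under 0.05. The core subunit and peptidase gene AT1G51980 had 402 and 388 in add3, against 269 and 306 in WT (log2 difference 0.44, limma adjusted p = 0.0789), and the cytochrome c1 gene AT5G40810 had a log2 difference of 0.33. Those of complex V gave a median of 0.05 over 6 tested of 14, with 0 calls and 1 at an unadjusted p under 0.05 in limma. The ATP synthase subunit gene AT5G47030 had 870 and 860 in add3, against 685 and 649 in WT (log2 difference 0.37, limma adjusted p = 0.0897), and AT5G15320 had a log2 difference of -0.17. When each array was scaled to the same median, AT1G51980 and AT5G47030 rose by 0.54 and 0.47 on the log2 scale (limma adjusted p = 0.0436 and 0.0427). Complex II, whose subunits are all nuclear-encoded in this species, had 3 probe sets tested and 0 calls in limma, with 1 at an unadjusted p under 0.05. SDH2-2 had 151 and 151 in add3, against 197 and 195 in WT (log2 difference -0.35, limma adjusted p = 0.130), and SDH1-1 had a log2 difference of -0.21.

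**Figure D4:**
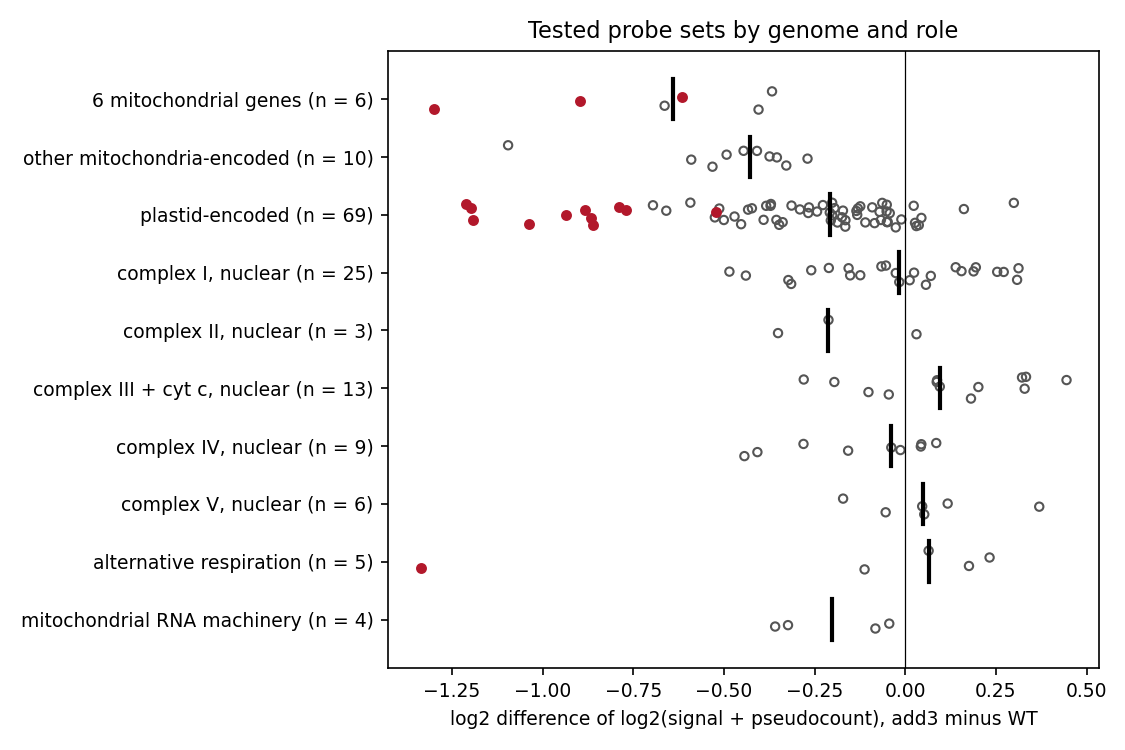
Log2 differences, add3 minus WT, of tested probe sets grouped by genome and role, with medians as black bars and probe sets past the threshold in red. The medians were -0.64 for the 6 mitochondrial genes, -0.43 for the other mitochondria-encoded probe sets and -0.21 for plastid-encoded ones, while nuclear genes of complexes I, III, IV and V had medians between -0.04 and 0.10. Nuclear genes of complex II (-0.21) and of mitochondrial transcription and RNA processing (-0.20) had medians near the plastid one.

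Among genes of alternative respiration and mitochondrial stress, 5 of 18 listed loci were tested, 1 fell and 0 rose. The gene that fell was AT2G21640, which is known to be induced by oxidative stress and by disturbed mitochondria. Its signals were 37.8 and 50.5 in add3, against 148 and 114 in WT (log2 difference -1.34, SE 0.18, limma adjusted p = 0.0131). Fits without each array in turn gave AT2G21640 limma adjusted p-values from 0.00322 to 0.0452, again with 1 array left in a group. For transcription and RNA processing in mitochondria, 4 of 30 listed loci were tested, and limma called 0, with 0 at an unadjusted p under 0.05. All 4 estimates were below 0 (median -0.20), as were 55.9% of all tested, and OTP87 passed the filter through its WT signals alone. The editing factor gene OTP87 had 26.7 and 28.4 in add3, against 37.2 and 40.4 in WT, and the maturase gene AT5G04050 had 34.4 and 43.7 in add3, against 53.8 and 49.8 in WT. The nuclear genes of cytochrome c maturation had 1 probe set of their own, and it was too dim to be tested.

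The pattern over the 4 arrays was compared with 7350 tested probe sets of single genes outside the mitochondrial genome. The likeness was the root mean square distance of log2 values, centred on the WT mean, from a mean profile. This profile was the mean of the 6 probe sets that were above background on every array. They include the dimmer nad5 probe set, which was not tested, and leave out the brighter one. That mean profile was -0.67 and -0.57 in add3, against 0.11 and -0.11 in WT. The nearest profiles were those of AT3G01520 (distance 0.0188), AT1G26320 (0.0216), AT1G65220 (0.0286), AT1G53440 (0.0315) and the F-box gene LCR (0.0316). AT3G01520, for example, had signals of 338 and 358 in add3, against 589 and 491 in WT. Of these, AT3G01520, AT1G53440 and LCR fell past the threshold (limma adjusted p = 0.0389 to 0.0433). All the nearest profiles were chosen on the same arrays for likeness to a profile that was lower in add3. A lower level in add3 was thus built into the choice, and these calls are no separate evidence of a fall.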

How the data were processed

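RNA from 2 add3 and 2 WT samples was hybridised to 4 ATH1 arrays, grouped and numbered by sample title. The deposited values are 1 signal intensity per probe set and array, made by the authors with MAS5 per the submitters' processing notes. No MAS5 version is given in the sources used here, and detection calls were not used. Trimmed means lay between 99.4 and 99.5, as after scaling of whole arrays. Without 64 controls the table held 22746 probe sets, of which 13513 were annotated to 1 gene, 503 to several and 8730 to none. Single-gene probe sets were placed on the mitochondrial genome by symbol or synonym in the TAIR10.1 gene table, since their gene IDs were not in it.

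To each signal 12.5 was added, which is 0.25 of the median of 50.1, before log2 was taken. The probe sets fitted had mean signals no lower than the 40th percentile. The test was limma (version 3.58.1, R 4.3.3), two-sided, using lmFit and then eBayes with a trend on intensity, and it had 2 residual degrees of freedom. The number of arrays limits the precision. The procedure was tested on simulated data. Nuclear genes came from 8 lists of 146 loci written from general knowledge. Of these, up to 4 called members are named, or the 2 with the smallest p, and every mitochondria-encoded gene with a probe set of its own is named. The likeness rule takes the 5 nearest profiles. The members and lists were chosen with earlier results of these data known. For the folds given as at least N-fold, the group above background was set against the background of the other group's arrays.

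Alternatives were another scaling, pseudocount, filter or variance model, single-gene probe sets alone, a replicate block and leaving out each array. Deviations of samples that share a replicate number correlated at -0.12, so a crossed block was added after seeing the data.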

Additional observations from a re-analysis of the deposited data

How the results depend on the processing

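Of 14 alternatives, 13 were planned and the crossed block was chosen after seeing the data. Under all of them every fitted estimate for the 7 probe sets stayed below 0. With the crossed block, calls numbered 4 among the 6 genes (ccb382 added), 1 among other mitochondria-encoded probe sets (a fall), 4 in the nuclear lists and 1909 over all probe sets. The 3 falls among the 6 genes became 1 with the arrays set to 1 median, 0 with no filter (limma, with 6 of 7 at an unadjusted p under 0.05, against 18.2% of all probe sets), and 1 to 3 without 1 array (1 without add3 replicate 1 or WT replicate 1). With no filter cox1 missed the threshold (limma adjusted p = 0.0513). The nad4 call was also lost without an intensity trend (0.0728) and with a replicate block (0.0552), and that of nad5 with a pseudocount of 1 (0.0522) and with quantile normalization (0.0647). The median log2 difference of the tested members lay between -0.81 and -0.47 without 1 array.

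The other mitochondria-encoded probe sets had 1 call, in each case a fall, with the filter at the 60th percentile or single-gene probe sets alone (ccb452, both) and with a replicate block (a nad1 probe set), and 0 to 1 without 1 array. The nuclear lists, with 1 call, had 3 with median scaling, 0 with no filter (limma, with 15 of 76 at an unadjusted p under 0.05) and 1 to 2 without 1 array. Over all probe sets the 997 calls (569 rises, 428 falls) became 13 with no filter, 555 without an intensity trend, 532 with single-gene probe sets alone, 878 with the replicate block, and 437 to 817 without 1 array. With median scaling there were 937 rises and 320 falls. The labels tie no replicate number to a shared planting, so the block pairs samples by number only. The lowest fold of ccb203 was 3.68 with the second highest bacterial control as background. The causes of these changes were not tested. Signals near background limit what can be said of nad2, nad7 and matR.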
